A study of Mus musculus with 9 samples.

Results

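The regions described here are 5 kb stretches of the mouse genome in which every H3K27ac contact map of double-positive thymocytes placed the end of a contact. The autosomes (chromosomes 1 to 19) were divided into 5 kb bins, and a bin was taken when the midpoint of an interaction anchor fell in it in each of the 4 H3K27ac tables. Of 412932 bins with an anchor in any of the 10 deposited tables, 51188 (12.4%) met this rule and are called held bins. The rule used the H3K27ac values, so H3K27ac values of held bins are given as a description, with no test. The Smc1 tables played no part in the choice.

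HiChIP captures contacts between distant pieces of DNA and enriches those bound by a chosen protein or histone mark. It was done on CD4+CD8+ thymocytes, the stage at which T cell precursors carry both co-receptors, from C57BL/6J mice (BL6), NOD/ShiLtJ mice (NOD) and a (NOD/ShiLtJ X C57BL/6) F1 cross. The H3K27ac groups were BL6 and NOD with 2 libraries each, which the labels number as biological replicates. The Smc1 groups were BL6 and NOD with 2 libraries each, numbered as technical replicates of 1 biological replicate per strain, and a single F1 library. No agent or allele other than the strain itself is named for any group, and the mice's age and the number of animals pooled are not given in the sources used here. The H3K27ac sample titles name Smc1, whereas their antibody field and table names give H3K27ac. Groups here follow the antibody field, and every H3K27ac statement rests on it. The table names state that NOD reads were placed on a NOD genome and the positions afterwards shifted to the reference, so strain and mapping genome cannot be told apart. The F1 library was deposited on both genomes.

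H3K27ac, acetylation of lysine 27 on histone H3, marks active promoters and enhancers. Smc1 is a subunit of cohesin, the ring-shaped complex that extrudes DNA loops until it meets a barrier, most often the zinc finger protein CTCF. Double-positive thymocytes rearrange the T cell receptor alpha chain and await selection, and enhancers bound by factors such as Bcl11b, Ets1 and Tcf7 drive their gene program. An anchor in every H3K27ac table marks a place with listed contacts in each library, whether or not the partner was the same.

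The start sites that stood out among the held bins are shown first. Each sequence is the RefSeq promoter window (GRCm38.p6) from 250 bases before to 50 after the start site, 5′ to 3′ on the gene's strand. Capitals mark matches to 7 motifs searched on both strands: ETS (CCGGAAGT), NRF1, CCAAT box (CCAAT), GC box (GGGCGG), RUNX (TGTGGTT), E-box (CAGCTG) and TATA box (TATAAA). No matches overlapped each other in these 5 windows. Ctcf (chr8:105636288-105636587, plus strand) is shown because its bin had the most H3K27ac contacts of all bins with a start site, and Cd8a (chr6:71373177-71373476, plus strand) because it came next. Cd5 (chr19:10738925-10739224, minus strand) and Sox4 (chr13:28953650-28953949, minus strand) are shown because they lay at one end of contacts that recurred in all 4 H3K27ac tables. Jund (chr8:70697489-70697788, plus strand) is shown because its bin was the highest start-site bin with no Smc1 contact.
Ctcf: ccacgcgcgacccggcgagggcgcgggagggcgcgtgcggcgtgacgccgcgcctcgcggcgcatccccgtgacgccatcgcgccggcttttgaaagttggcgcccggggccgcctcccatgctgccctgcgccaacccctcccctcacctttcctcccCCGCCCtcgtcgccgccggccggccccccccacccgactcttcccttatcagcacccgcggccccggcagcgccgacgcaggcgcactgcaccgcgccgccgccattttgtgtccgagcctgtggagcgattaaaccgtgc
Cd8a: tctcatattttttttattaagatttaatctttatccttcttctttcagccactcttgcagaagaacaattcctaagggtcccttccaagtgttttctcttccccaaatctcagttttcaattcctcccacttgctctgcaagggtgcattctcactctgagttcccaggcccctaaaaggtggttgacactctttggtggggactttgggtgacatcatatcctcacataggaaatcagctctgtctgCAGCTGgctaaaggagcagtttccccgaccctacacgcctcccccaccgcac
Cd5: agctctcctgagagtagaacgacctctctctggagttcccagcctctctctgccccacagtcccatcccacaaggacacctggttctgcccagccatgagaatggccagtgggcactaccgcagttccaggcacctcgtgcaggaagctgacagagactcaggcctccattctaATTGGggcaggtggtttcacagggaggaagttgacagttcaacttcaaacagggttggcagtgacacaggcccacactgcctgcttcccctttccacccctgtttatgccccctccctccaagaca
Sox4: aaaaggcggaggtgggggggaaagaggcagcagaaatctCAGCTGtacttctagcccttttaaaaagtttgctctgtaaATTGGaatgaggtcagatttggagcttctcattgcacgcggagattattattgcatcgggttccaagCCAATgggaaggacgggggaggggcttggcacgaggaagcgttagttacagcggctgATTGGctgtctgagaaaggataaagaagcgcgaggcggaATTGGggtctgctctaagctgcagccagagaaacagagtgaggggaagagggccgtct
Jund: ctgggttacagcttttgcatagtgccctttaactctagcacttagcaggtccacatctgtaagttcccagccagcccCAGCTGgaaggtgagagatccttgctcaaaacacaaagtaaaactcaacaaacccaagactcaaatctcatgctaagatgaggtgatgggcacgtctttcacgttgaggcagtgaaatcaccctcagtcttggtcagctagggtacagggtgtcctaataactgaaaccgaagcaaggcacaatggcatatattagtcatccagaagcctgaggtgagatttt
The Ctcf window was rich in CpG dinucleotides, with 47 CpG and a GC content of 75.3%, and held 1 GC box. The windows of Cd8a, Cd5 and Jund held 3 CpG each and that of Sox4 held 12. Sox4 had 4 CCAAT matches and 1 E-box, Cd5 had 1 CCAAT match, and Cd8a and Jund had 1 E-box each.

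Over all genes, start sites in held bins had the sequence make-up of CpG-rich promoters. The 20084 promoter windows of 16456 genes had a median of 14 CpG, while the 4408 windows in held bins had 18 and the 3757 windows in bins of no H3K27ac table had 3. Bins of no H3K27ac table here include bins that no deposited table lists. Median GC content was 59.3% in held bins, 46.0% in bins of no H3K27ac table and 57.0% over all windows. The ETS match was present in 1.54%, 3.56%, 4.93%, 6.90% and 8.33% of windows in bins of 0, 1, 2, 3 and 4 H3K27ac tables, against 5.28% of all windows. The GC box followed the same order, from 22.7% to 56.4%, with 47.0% of all windows. TATA matches ran the other way, from 25.4% in bins of no table to 7.78% in held bins, with 12.7% of all windows. RUNX matches were at 7.05% and 4.13% in the same comparison and 4.77% of all windows, and E-box matches at 12.1% and 17.1% and 15.6% of all windows. NRF1 stood at 0.479% and 1.81% with 1.34% of all windows, and CCAAT at 43.3% and 36.3% with 38.1% of all windows. Windows in bins of 3 tables were close to those in held bins, with 18 CpG and a GC box in 55.1%. These shares describe letters in a window and are not evidence that a factor was bound.

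Few held bins lay at start sites. Each held bin was labelled once, by the gene that named it. The gene's body without its ends covered 49.6%, its listed start site lay in 6.34%, and another end of it in 7.26%. A further 5.33% were within 5 kb of the gene, and 31.5% had no protein-coding gene within 5 kb. Any overlap with a protein-coding gene was found in 63.3% of held bins. The same share was 30.8%, 47.4%, 56.0% and 60.0% in bins of 0, 1, 2 and 3 H3K27ac tables. A listed start site of any protein-coding gene, whether or not that gene named the bin, lay in 3524 held bins (6.88%). The share was 1.49%, 3.33%, 4.79% and 5.83% of bins held by 0, 1, 2 and 3 H3K27ac tables. Start sites were listed for 16456 of 20661 protein-coding genes, so these shares leave out the rest. Held bins were scattered: 27038 of them (52.8%) had no held neighbour, and the rest formed runs of adjacent bins. The longest of 36544 runs had 12 bins (60 kb), and 11 runs reached 10 bins. Runs of 12 lay over Rgs9, which encodes a regulator of G protein signalling (chr11:109180001-109240000), and over Sorcs2, a sorting receptor gene (chr5:36255001-36315000). The Rgs9 run carried 107, 152, 120 and 93 H3K27ac read pairs in BL6 libraries 1 and 2 and NOD libraries 1 and 2, and 201, 261, 248 and 155 Smc1 read pairs in the same order.

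The chromosomes differed widely. Held bins made up 18.7% of the bins with any anchor on chromosome 5, 21.4% on chromosome 7, 21.5% on chromosome 9 and 20.5% on chromosome 11, but 3.89%, 5.88%, 3.72% and 3.72% on chromosomes 16, 17, 18 and 19. Chromosomes 3 and 10 stood at 5.31% and 7.58%. Library 1 of each strain had few H3K27ac anchors on chromosomes 16 to 19. On chromosome 19, BL6 library 1 had 1.07% and NOD library 1 0.828% of its bins, against 2.63% and 2.46% for library 2. The part of these 2 libraries in the distribution of held bins was not tested.

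Contacts per held bin are given as paired-end tags (PETs), the read pairs supporting the interactions with an anchor midpoint in the bin, and as CPM, PETs scaled to a library of 1000000 used PETs. The H3K27ac libraries had 440896 (BL6 1), 1203733 (BL6 2), 381002 (NOD 1) and 497697 (NOD 2) used PETs, and the Smc1 libraries 1484541 to 2620621. A held bin had a median of 6, 11, 6 and 6 H3K27ac PETs in that order of libraries. Membership was often thin, since 22840 held bins (44.6%) had 2 PETs, the lowest number the tables list, in at least 1 library. At the edge of the rule, 87 bins had 2 PETs in every H3K27ac library, and 2277 (4.45%) had at least 10 in every one. Just outside it were 63895 bins of 3 tables, of which 20071 missed BL6 library 1, 3276 BL6 library 2, 23254 NOD library 1 and 17294 NOD library 2. The deepest library, BL6 library 2, excluded the fewest bins. Bins of 3 tables had a median of 21 PETs summed over their 3 tables, and held bins 33 over 4. Contacts with an end in a held bin took 70.0% and 47.6% of H3K27ac PETs in BL6 and 73.8% and 59.2% in NOD, and the lowest share belonged to the deepest library.

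Across the 51188 held bins, Spearman's rho of PETs per bin between 2 H3K27ac libraries ran from 0.139 (NOD 1 with NOD 2) to 0.296 (BL6 2 with NOD 2), with 0.200 for BL6 1 with BL6 2. Between 1 H3K27ac and 1 Smc1 library, rho ran from 0.122 (H3K27ac NOD 1 with Smc1 BL6 1) to 0.331 (H3K27ac BL6 2 with Smc1 BL6 1). The value of 0.331 was above any rho between 2 H3K27ac libraries. Mean H3K27ac CPM and mean Smc1 CPM had a rho of 0.416 over the same bins. That value compares means of 4 libraries and is not on a par with those of single libraries. These coefficients describe bins that share libraries and, in part, neighbours, and no p-value is given for them.

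The highest held bins were led by a pair of nearby bins on chromosome 8. The bin at the end of Ripor1 (chr8:105620001-105625000) had 206 and 38 H3K27ac PETs in BL6 and 69 and 119 in NOD. The Ctcf start-site bin, 15 kb away (chr8:105635001-105640000), had 246, 46, 62 and 76. On the CPM scale the Ripor1 bin reached 467 and 31.6 in BL6 and 181 and 239 in NOD, so BL6 library 1 was the highest and BL6 library 2 the lowest, and the strains overlapped. Ripor1 averaged 229.8 CPM and Ctcf 227.9 CPM over the 4 libraries.

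Bins of Cd6, Bcl11b and Il21r were among the other leading bins. Cd6 encodes a surface receptor that tunes T cell receptor signalling, and a bin in its body (chr19:10825001-10830000) had 75 and 164 PETs in BL6 and 53 and 151 in NOD. That bin stops just short of one end of the gene, at position 10830062. The strains overlapped there too, with 170 and 136 CPM in BL6 and 139 and 303 CPM in NOD. Bcl11b, the zinc finger factor required for commitment to the T lineage, had 26, 155, 60 and 118 PETs in a bin of its body (chr12:107995001-108000000). That bin stood at 59.0 and 129 CPM in BL6 and at 157 and 237 CPM in NOD, with both NOD libraries above both BL6 libraries by a margin smaller than the spread within either strain. Il21r, the receptor gene for interleukin 21, had 91, 57, 41 and 81 PETs in the bin at its end (chr7:125630001-125635000), and the strains overlapped.

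Both NOD libraries were above both BL6 libraries in 3 of the 12 highest bins (25%; only the highest bin within 100 kb was kept, which leaves out Ctcf), Bcl11b and 2 more, against 19.8% of all held bins, and below them in 0, against 9.35%. The rule used these values, and nothing is read from the counts. Beside Tmem267, a transmembrane protein gene (chr13:119615001-119620000), BL6 had 5 and 24 H3K27ac PETs and NOD 150 and 204, or 11.3 and 19.9 CPM against 394 and 410 CPM. A bin 16.8 kb from Zfp990, in a cluster of near-identical zinc finger genes (chr4:145555001-145560000), had 18 and 14 PETs in BL6 and 108 and 113 in NOD. Smc1 followed the same order at both, with 44 and 36 PETs in BL6 and 199 and 196 in NOD beside Tmem267, and 29 and 34 in BL6 and 192 and 329 in NOD near Zfp990. The F1 library, which carries both genomes, gave 166 PETs beside Tmem267 when placed on BL6 and 223 when placed on NOD. Near Zfp990 it gave 70 and 103. F1 had fewer used PETs than the other Smc1 libraries, so CPM is given as well. Beside Tmem267, Smc1 stood at 23.2 and 13.7 CPM in BL6, 120 and 132 in NOD, and 217 and 282 in F1. Near Zfp990 it stood at 15.3 and 13.0 CPM in BL6, 115 and 222 in NOD, and 91.5 and 130 in F1. Reads from gene copies of nearly the same sequence cannot be assigned to one copy with certainty, and the mapping genome differed between the strains.

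The other 6 of the 12 highest bins were near Smndc1, a splicing factor gene, in Pitpnm2, a phosphatidylinositol transfer protein gene, in Hpcal1, a calcium sensor gene, in Trak1, an adaptor for mitochondrial transport, in Mad1l1, a spindle checkpoint gene, and at the end of Medag. Mad1l1 shows how far libraries of one strain could differ: 149 PETs (338 CPM) in BL6 library 1, 15 (12.5 CPM) in BL6 library 2, and 50 and 29 in NOD (131 and 58.3 CPM).

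**Figure D1:**
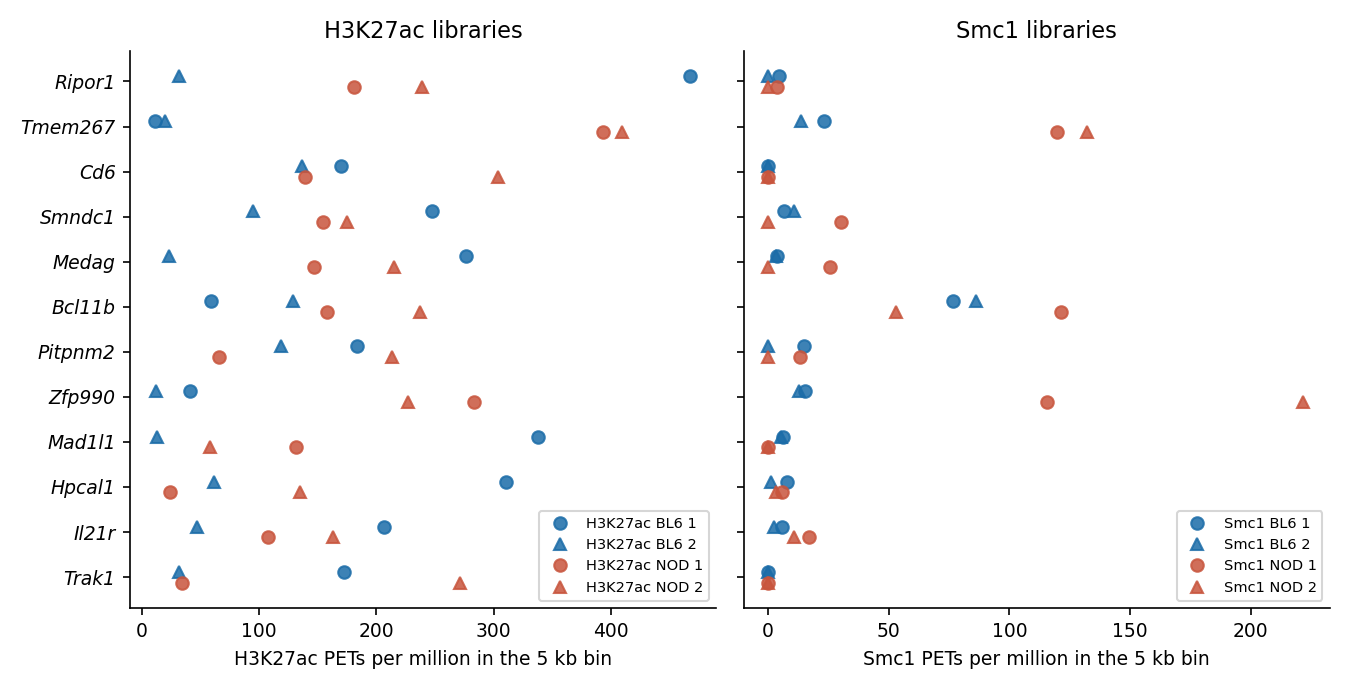
CPM in the 12 held bins with the highest mean H3K27ac level when only the highest bin within 100 kb is kept, which leaves out the Ctcf start-site bin beside Ripor1, for the 4 H3K27ac libraries (left) and the 4 Smc1 libraries (right); circles are library 1, triangles library 2, blue BL6 and red NOD, and each point is 1 library. In H3K27ac the strains are widely separated at Tmem267 and Zfp990, and at Cd6 and Trak1 all 4 Smc1 libraries sit at 0.

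The lists of genes differed in the share of start sites that lay in held bins. Of 16456 protein-coding genes with a start site in the promoter table, 3747 (22.8%) had one in a held bin, and this is the background for the lists. T cell receptor signalling genes had 14 of 26 (53.8%), thymocyte transcription factors 14 of 29 (48.3%) and genes of the double-positive stage 10 of 21 (47.6%). Acetylation, cohesin and loop factors had 6 of 18 (33.3%) and type 1 diabetes candidates 8 of 26 (30.8%). Housekeeping genes had 4 of 20 (20%). Markers of other cells a thymus could hold were under the background with 5 kb bins and anchors placed by midpoint: B cell 2 of 12 (16.7%), thymic epithelium 2 of 12 (16.7%), erythroid 1 of 7 (14.3%), mature single-positive T cell 1 of 12 (8.33%), natural killer 1 of 12 (8.33%), and myeloid and dendritic 1 of 18 (5.56%). Start sites in no H3K27ac table made up 19.4% over all genes and less in every list. They were 0% for T cell receptor signalling, 3.45% for thymocyte transcription factors and 4.76% for double-positive stage genes. In the lists of other cells they ran from 0% (thymic epithelium) to 16.7% (natural killer). The lists share some genes, no test was made on them, and with under 30 genes each the smaller differences rest on 1 or 2 genes. With at least 3 PETs required per interaction the background was 7.07%, T cell receptor signalling 34.6%, thymocyte transcription factors 27.6% and double-positive stage genes 23.8%, while erythroid markers had 14.3%, housekeeping genes 10%, and B cell and natural killer markers 8.33% each.

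Other settings also put marker lists above the background. Thymic epithelium markers had 41.7% against 28.4% with anchors placed in every bin they overlap, 66.7% against 39.6% in 10 kb bins, and 33.3% against 31.6% without BL6 H3K27ac library 1. B cell markers had 41.7% in 10 kb bins and, without NOD H3K27ac library 1, 41.7% against 29.5%, where erythroid markers had 42.9%. Housekeeping genes had 45% against 28.4% without NOD H3K27ac library 2. By gene ends near a held bin, B cell markers had 62.5% against 49.6% of all protein-coding genes. T cell receptor signalling, thymocyte transcription factors and double-positive stage genes were above the background in each of these settings.

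**Figure D2:**
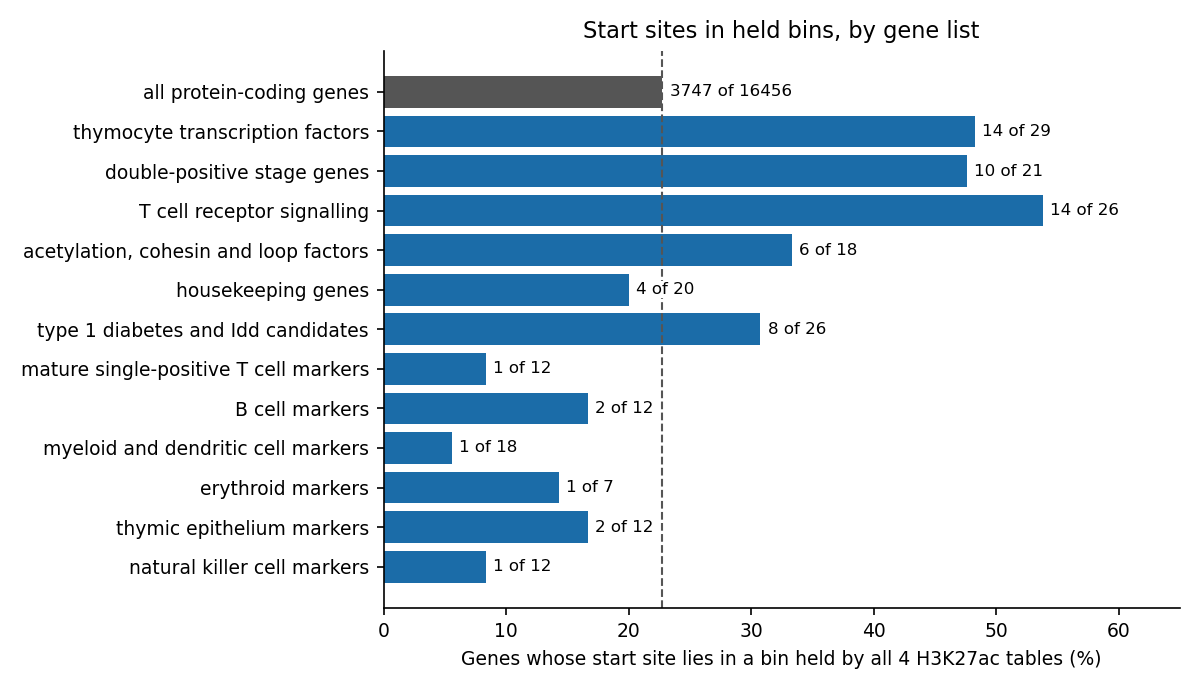
Percentage of genes whose start site lies in a held bin, for all protein-coding genes with a start site (grey, dashed line at 22.8%) and for 12 gene lists (blue), with the gene counts at each bar. T cell receptor signalling (53.8%), thymocyte transcription factors (48.3%) and double-positive stage genes (47.6%) lie above the line, and the 6 lists of other cell types lie below it.

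Among transcription factors, a bin near one end of Tcf7, which encodes the T lineage factor TCF1 (chr11:52275001-52280000), had 116 and 3 H3K27ac PETs in BL6 and 32 and 11 in NOD. Sox4, a factor of early lymphoid cells, had 26, 44, 22 and 36 PETs in its start-site bin, and Foxp1, a forkhead factor of naive T cells, 48, 56, 20 and 31. The co-receptor genes Cd8a, Cd8b1 and Cd4 each had an end within 5 kb of a held bin, as did 49.6% of all protein-coding genes. The Cd8b1 and Cd4 bins given here held no listed start site. The Cd8a start-site bin (chr6:71370001-71375000) had 139, 23, 23 and 33 PETs, a bin at Cd8b1 62, 21, 25 and 32, and a bin at Cd4 (chr6:124885001-124890000) 66, 23, 21 and 55. Rmnd5a, the neighbour of Cd8a and a ubiquitin ligase subunit gene, had 140, 60, 3 and 50.

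Of the signalling genes, the Cd5 start-site bin (chr19:10735001-10740000) had 49 and 47 PETs in BL6 and 51 and 62 in NOD. Cd5 encodes a receptor that lowers T cell receptor signalling and is the genomic neighbour of Cd6. Cd247, the zeta chain of the receptor complex, had 76, 55, 39 and 14 PETs, and Lck, the kinase that starts the signal, 30, 9, 13 and 55 in its start-site bin. Rasgrp1, which passes the signal to Ras, had 23, 47, 11 and 40. The start-site bin of Smc3, another cohesin subunit, was held as well, with 19, 14, 7 and 18 PETs. The highest bin of any marker of another cell type was near Ly86, a myeloid gene, with 11, 39, 17 and 25 PETs. It averaged 38.0 CPM over the 4 libraries. The median gene of a list, by its highest held bin, stood at 34.9 CPM among thymocyte transcription factors, 24.2 CPM among those of the double-positive stage, 22.8 CPM among B cell markers, 21.9 CPM among myeloid and dendritic markers and 21.4 CPM among T cell receptor signalling genes, against 17.5 CPM over all genes near a held bin.

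The anchors recurred in all 4 tables by the rule, but the contacts joining them seldom did. The 4 H3K27ac tables listed 164277 distinct pairs of held bins, of which 159989 (97.4%) were in 1 table, 4093 (2.49%) in 2, 171 (0.104%) in 3 and 24 (0.0146%) in all 4. Any 2 H3K27ac tables shared few pairs: BL6 libraries 1 and 2 shared 937, which was 2.17% and 2.08% of their pairs, and NOD libraries 1 and 2 shared 597, which was 1.29% and 1.75%. In the deeper Smc1 tables, 210377 pairs of the same held bins were listed and 191 (0.0908%) were in all 4. Summed into 25 kb bins, 244 of 144852 H3K27ac pairs (0.168%) and 910 of 175577 Smc1 pairs (0.518%) were in all 4 tables. Pairs in more H3K27ac tables were shorter, with median spans of 765, 485, 240 and 107.5 kb in 1, 2, 3 and 4 tables.

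The 24 pairs in all 4 H3K27ac tables lay at 21 loci when pairs with both ends within 100 kb of each other were merged. By that rule the Ets1 pairs, which share a bin, count separately. The Ripor1 end and the Ctcf start site, 15 kb apart, were joined by 64 and 23 PETs in BL6 and 31 and 26 in NOD. Bins near both ends of Cd6, 40 kb apart, were joined by 18, 23, 28 and 33 PETs, and the Cd5 start site was joined to the Cd6 body bin, 90 kb away, by 9, 19, 18 and 26. In CPM, both Cd6 pairs stood higher in both NOD libraries, at 40.8 and 19.1 CPM in BL6 and 73.5 and 66.3 CPM in NOD within Cd6, and at 20.4 and 15.8 against 47.2 and 52.2 CPM from Cd5 to Cd6. The body of Ets1, which encodes a founding member of the ETS factor family, was joined to a bin 105 kb away outside the gene by 12, 19, 6 and 19 PETs, and to another 245 kb away on the other side by 10, 16, 3 and 6. The Sox4 start site was joined to a bin 535 kb away, 263 kb from the nearest named gene, Prl5a1, by 10, 5, 6 and 9. Between Smndc1 and Dusp5, which encodes a phosphatase of the kinase ERK, 2 bins 80 kb apart were joined by 24, 19, 11 and 14 PETs. A pair of Pitpnm2 bins 45 kb apart, one with a start site, were joined by 15, 17, 8 and 20. In CPM, both NOD libraries were above both BL6 libraries in 5 of the 24 pairs (20.8%), below them in 3 (12.5%), and overlapped with them in the rest, including Ripor1 to Ctcf and Sox4. The rule used these tables, and no test was made.

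The longest of the 24 spanned 1965 kb between the bin near Zfp990 and one near Zfp982, with 16 and 5 PETs in BL6 and 28 and 52 in NOD, again within the cluster of similar zinc finger genes. The next in length joined Klb and Rbm47 over 735 kb with 2 or 3 PETs in each library, the fewest of all 24. Of the 24 pairs, 6 had a listed start site at 1 end and none at both ends. A start site just outside a 5 kb bin, or one that was not listed, does not count here. Over all pairs, a start site at either end was present in 12.3% of those in 1 table, 13.8% in 2, 19.3% in 3 and 25% in 4.

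Some held bins had several recurring partners. Counting partners joined in at least 2 H3K27ac tables, 7099 held bins (13.9%) had 1 or more and 29 had 5 or more. The most, 9, belonged to a bin just outside Bcl11b (chr12:108005001-108010000), with 42 and 143 PETs in BL6 and 15 and 61 in NOD. The Il21r bin had 7 partners. Bins with 6 included 1 in the body of Ets1 and others 41.2 kb and 167 kb from that gene. They also included 1 that lay 8.96 kb from Tlr5, which encodes a receptor for bacterial flagellin. Another was 58.3 kb from Rplp1, a ribosomal protein gene. Bins with 5 included 1 each at Pitpnm2 and Prex1, a Rac activator gene, and 1 that lay 26.1 kb from Egfl7.

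**Figure D3:**
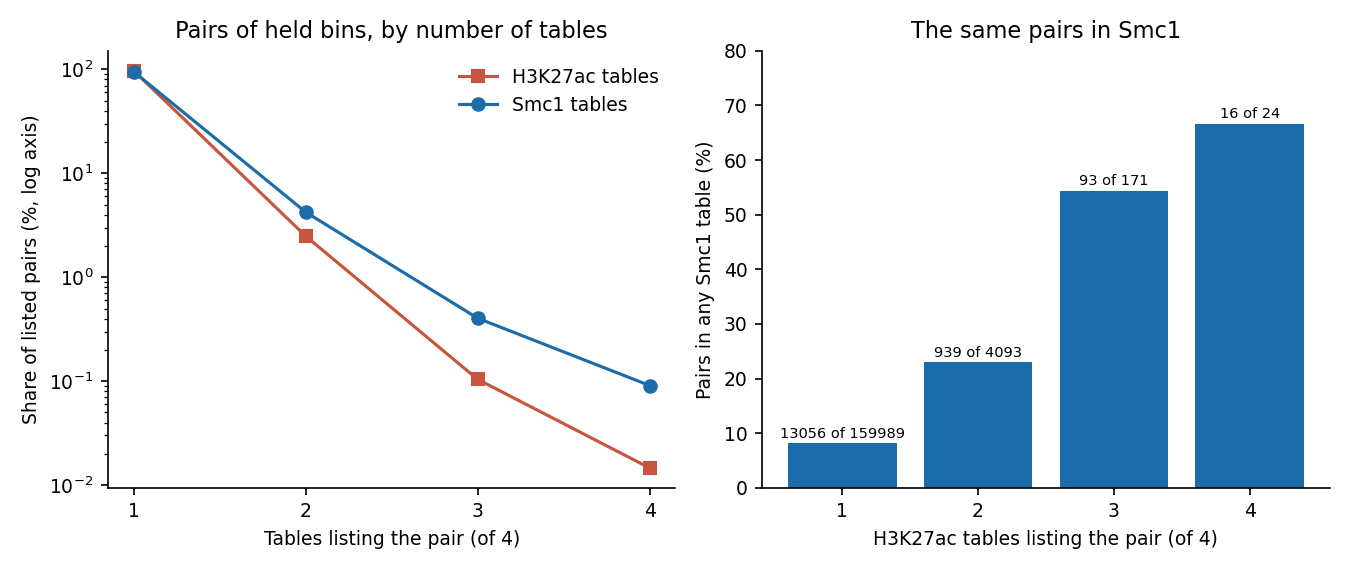
Left, share of listed pairs of held bins that were in 1, 2, 3 or 4 tables (log axis), for the H3K27ac tables (red) and the Smc1 tables (blue); right, percentage of H3K27ac pairs that any Smc1 table also listed, by the number of H3K27ac tables listing them. Pairs in all 4 tables make up 0.0146% in H3K27ac and 0.0908% in Smc1, and the share also found in Smc1 goes from 8.16% to 66.7%.

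The held bins were well connected in the Smc1 tables, which had no part in choosing them. All 4 Smc1 tables had an anchor in 79.0% of held bins, against 21.5%, 41.9%, 55.1% and 68.6% of bins in 0, 1, 2 and 3 H3K27ac tables. The median Smc1 level went from 1.69 CPM in bins of no H3K27ac table to 7.98 CPM in held bins. Bins of no H3K27ac table were counted only where a Smc1 or F1 table listed them, and 4.88% had no Smc1 anchor. Their Smc1 values are therefore not independent of how those bins were taken. Held bins had a median of 13 and 21 Smc1 PETs in BL6 and 13 and 11 in NOD, and each Smc1 library listed between 90.2% and 94.0% of them. The F1 library listed 77.4% when placed on the BL6 genome and 77.8% when placed on that of NOD. Pairs of held bins gave the same order: 8.16% of pairs in 1 H3K27ac table were in any Smc1 table, 22.9% of those in 2, 54.4% of those in 3 and 16 of the 24 in 4 (66.7%). Spans also differed between these classes, as given above.

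A smaller share of the held bins at gene start sites was in the Smc1 tables. All 4 Smc1 tables listed 55.2% of the 3524 held bins with a listed start site and 80.8% of the 47664 without. Only 16456 of 20661 protein-coding genes had a listed start site, so bins without one may include start sites of the other genes. The difference held among the held bins in the highest decile of H3K27ac, at 57.7% and 86.3%. In the lower 5 deciles the shares were 52.1% and 76.6%. Median Smc1 levels were 5.91 CPM with a start site and 8.13 CPM without, although median H3K27ac was 15.5 and 14.6 CPM. The gap was present in every Smc1 library: 82.3% with a start site against 94.9% without in BL6 1, 73.6% against 93.3% in BL6 2, 83.8% against 92.4% in NOD 1 and 71.1% against 91.6% in NOD 2. The gap was not particular to held bins. In bins of 3 H3K27ac tables the corresponding shares for all 4 Smc1 tables were 47.6% and 69.9%. They were 40.8% and 55.8% in bins of 2, 33.5% and 42.2% in bins of 1, and 19.8% and 21.5% in bins of 0. The share in all 4 Smc1 tables rose from 69.6% in the lowest decile of held bins by H3K27ac to 84.5% in the ninth and was 83.8% in the highest, and within the 500 highest bins, of which 14.0% had a start site, it was 72.0%.

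Library 2 of both strains had the larger gap. Among held bins with a start site, 195 (5.53%) were in library 1 of both strains and in neither library 2, while 21 (0.596%) had the opposite pattern, and 54 and 56 were in both libraries of BL6 alone and of NOD alone. In held bins without a start site the same counts were 477 (1.00%), 215 (0.451%), 366 and 222. The Ctcf start-site bin was an instance, with 33 and 0 Smc1 PETs in BL6 and 42 and 0 in NOD. An Ets1 body bin had 29 and 0 in BL6 and 89 and 0 in NOD, and the Smc3 start-site bin 18 and 0 in BL6 and 33 and 0 in NOD. BL6 library 2 was the deepest of the 4 and NOD library 2 the shallowest. A bin at 0 is one for which the table lists no interaction, not one measured to have none.

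**Figure D4:**
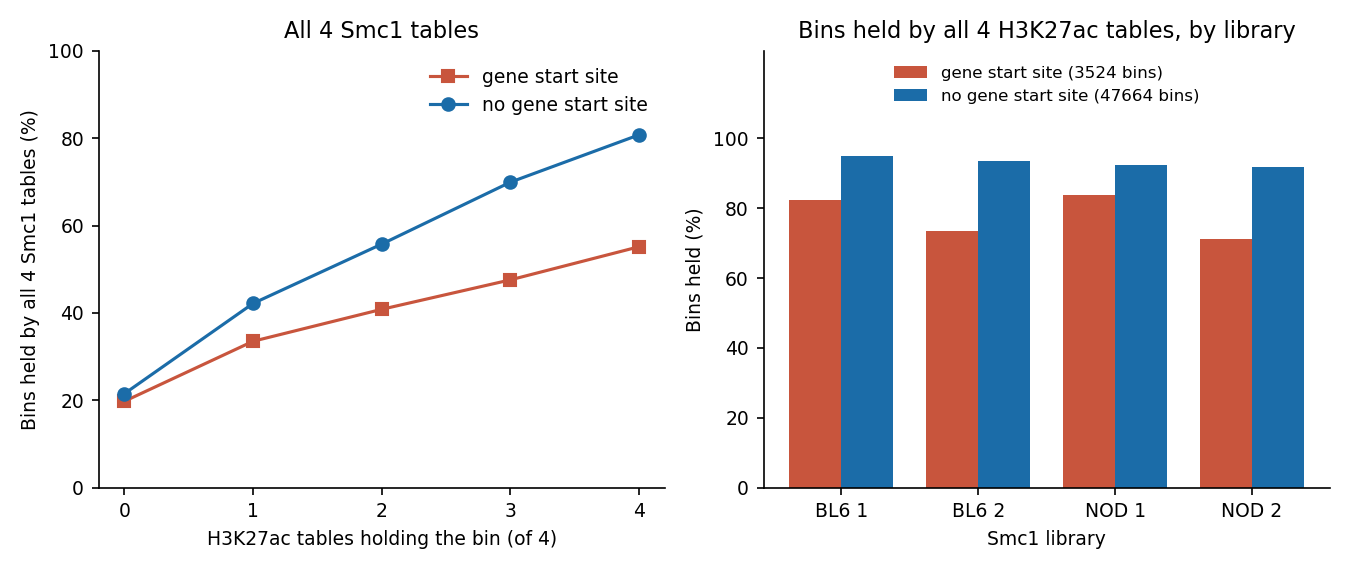
Left, percentage of 5 kb bins with an anchor in all 4 Smc1 tables by the number of H3K27ac tables holding the bin, for bins with (red) and without (blue) a gene start site; right, percentage of held bins listed by each Smc1 library. Both lines rise from left to right, reaching 55.2% and 80.8%, and start-site bins are lower in each of the 4 libraries.

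A small set of held bins had no Smc1 anchor at all: 472 (0.922%), of which 187 had a start site and 402 were also missing from the F1 tables. Cd6 led them, with 75, 164, 53 and 151 H3K27ac PETs and none in the 4 Smc1 tables or in F1. Trak1 followed with 76, 38, 13 and 135 H3K27ac PETs and 4 F1 PETs on either genome. A bin 182 kb from Map3k1, a kinase of the JNK pathway, had 24, 34, 33 and 94. The Jund start-site bin (chr8:70695001-70700000) had 58, 33, 8 and 68, and Jund encodes a subunit of the AP-1 factor. A bin 63.9 kb from Zfp36l2, which encodes a protein that destabilises messenger RNA, had 28, 90, 26 and 35. Both Cd6 pairs described above, the Ldlrad3 pair and 5 more of the 24 recurring pairs were in no Smc1 table. In contrast 4 were in all 4 Smc1 tables. They joined Zfp990 to Zfp982, the region near Nfe2l3 to Snx10 (24, 17, 13 and 8 Smc1 PETs), 2 bins of Intu (17, 5, 6 and 5) and Cpsf4l to Sdk2 (12, 9, 10 and 12).

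Among held bins listed by all 4 Smc1 tables, the ratio of mean Smc1 CPM to mean H3K27ac CPM varied widely. On the log2 scale it was highest near Copb1, a coatomer gene, at 2.21, with 46, 103, 81 and 63 Smc1 PETs and 2, 10, 4 and 5 H3K27ac PETs. Prr5l, a gene for an mTORC2 partner, was at 2.21, Aldh8a1 at 2.18, Pde10a, a phosphodiesterase gene, at 2.11 and Ntn4, a netrin gene, at 1.93. It was lowest in Hpcal1 at -4.85, with 15, 3, 10 and 5 Smc1 PETs and 137, 74, 9 and 67 H3K27ac PETs. Clec16a, a type 1 diabetes candidate that acts in mitophagy, was at -4.57, with 5, 2, 15 and 12 Smc1 PETs and 41, 132, 23 and 111 H3K27ac PETs. Hectd4 was at -4.20, Spata13 at -3.87 and Il21r at -3.86. These bins are the extremes of a distribution and were chosen by the ratio.

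The last question was whether Smc1 contacts of the held bins differed between NOD and BL6. No held bin did so by edgeR's quasi-likelihood test with Benjamini-Hochberg adjustment over all 158576 bins tested: 0 of 39269 held bins that passed the filter on low counts were called, against 0% of all bins tested. At an unadjusted p under 0.05, 977 held bins passed, 511 higher in NOD and 466 lower, or 2.49% against 2.79% of all bins. DESeq2 called 67 held bins (0.171%) and 459 of all bins (0.289%). The median log2 fold change was 0.02 over held bins and -0.04 over all bins. Both NOD libraries were above both BL6 libraries in 6932 held bins (17.7%; 16.1% of all bins) and below them in 5944 (15.1%; 17.1% of all bins). Leaving out 1 library at a time, edgeR called 5 held bins (0.0114%) without BL6 library 1, against 71 of all bins (0.034%). It called 0 held bins without BL6 library 2, against 14 of all bins (0.00682%), 63 (0.139%) without NOD library 1, against 441 (0.189%), and 31 (0.068%) without NOD library 2, against 205 (0.0896%). In each of these fits the share called was lower among held bins than among all bins. In simulated data of 118925 bins, edgeR called 0% of the changes at 4-fold, 26.2% at 16-fold and 75.8% at 64-fold, and DESeq2 was not run on them. The p-values measure spread between technical libraries of 1 biological replicate per strain.

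The held bins with the smallest p were chosen after their values were seen, and none passed adjustment (edgeR adjusted p = 1.00 for each). A bin in the zinc finger gene Zfp978 (chr4:147335001-147340000) had 16 and 28 Smc1 PETs in BL6 and 180 and 306 in NOD, a log2 fold change of 3.99 ± 0.58 (SE), and 13, 8, 117 and 56 H3K27ac PETs. F1 had 230 PETs there when placed on BL6 and 289 when placed on NOD. All PETs named here are raw counts, and F1 had 765174 used PETs on BL6 and 791845 on NOD. The other Smc1 libraries had 1484541 to 2620621. A bin 180 kb from Bcl11b (chr12:107725001-107730000) had 0 and 0 in BL6 and 57 and 29 in NOD. H3K27ac PETs there were 14 and 15 in BL6 and 2 and 9 in NOD. Those libraries had 440896, 1203733, 381002 and 497697 used PETs, so the raw H3K27ac counts do not order the strains. A bin of Hebp1, a heme-binding protein gene, had 0 and 0 in BL6 and 41 and 29 in NOD. In the other direction, a bin of Cdc42bpg, a kinase gene downstream of Cdc42, had 70 and 47 in BL6 and 0 and 0 in NOD, and F1 had 46 on either genome. No fold is given against libraries that list nothing.

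For pairs of held bins, 129 of the 691 pairs of bins that passed the filter joined held bins, and edgeR called 0 of the 129, against 0% of all 691. In simulated data of 410 pairs, edgeR called 4% of the changes at 4-fold, 37.7% at 16-fold and 73.8% at 64-fold. It also called 4 unchanged pairs. At an unadjusted p under 0.05, 14 of the 129 passed (10.9%), against 25.6% of all pairs, and DESeq2 called 12 (9.30%), against 19.4%. Both NOD libraries were above both BL6 libraries in 23 of the 129 (17.8%; 33.1% of all 691) and below them in 21 (16.3%; 8.1% of all 691). The smallest adjusted p was 0.0728 (edgeR), for 2 bins of Wnt3a, a Wnt ligand gene, with 33 and 35 Smc1 PETs in BL6 and 0 and 0 in NOD. No H3K27ac or F1 table listed that pair. Without BL6 library 2, edgeR called 1 of 585 pairs of held bins (0.171%), against 90 of all 2951 pairs (3.05%), and without BL6 library 1 it called 0 of 449, against 36 of 2251 (1.6%).

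The share of Smc1 PETs that involved held bins did not differ between the strains beyond the spread of the libraries. PETs with an end in a held bin made up 36.0% and 38.5% in BL6 (37.3% ± 1.76, SD, n = 2) and 39.1% and 37.9% in NOD (38.5% ± 0.854, SD, n = 2), with a two-sided exact permutation p of 0.667. PETs with both ends in held bins made up 7.69% and 8.92% in BL6 and 8.69% and 8.95% in NOD (exact permutation p = 0.667). The strains overlapped in both. Without BL6 library 1 the NOD minus BL6 differences turned from 1.20 and 0.512 to -0.0403 and -0.102 percentage points. With 2 libraries against 2 the smallest p possible is 0.33. In the F1 library the shares were 40.1% and 9.29% with BL6 as the mapping genome and 39.4% and 9.16% with NOD.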

How the data were processed

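Contacts were measured by HiChIP in 9 libraries, deposited as 10 interaction tables. The authors deposited counts of PETs per interaction without normalization, with reads per anchor, p-values and q-values, per the file headers. A check of the values showed interactions within chromosomes alone, each with 2 PETs or more and a q-value of at most 0.05. The build GRCm38 and the tools Juicer 1.7.6, HiC-Pro and MACS are given in the submitters' processing notes. PETs of interactions on chromosomes 1 to 19 whose anchor midpoints lay 10 kb or more apart were summed per 5 kb bin and per pair of bins, each interaction once per bin, and an unlisted interaction counted as 0. Genes and promoters came from RefSeq tables (GRCm38.p6).

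The tools were Python 3.11.15, pandas 2.3.3, SciPy 1.17.1, R 4.3.3, edgeR 4.0.16 (quasi-likelihood, TMM, robust, default filter) and DESeq2 1.42.0. Pairs of bins with few Smc1 PETs summed over the 4 Smc1 libraries were left out before that filter. The fits were checked on simulated counts. Used PETs per library ran from 381002 to 2620621, and 59.6% to 73.5% of used interactions rested on 2 PETs. Alternatives varied the distance, PET minimum, bin size, anchor placement, filter, scaling, tool and libraries.

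The members and lists were chosen with earlier results of these data known. Bins were named by genes within 5 kb, then by the nearest. Named were the 12 highest held bins by mean H3K27ac CPM and the 10 with most partners (1 per 100 kb), the 10 highest and 3 longest pairs in all 4 H3K27ac tables, bins called in Smc1, the 5 highest and 5 lowest by Smc1 to H3K27ac ratio, 5 without Smc1, and up to 6 genes a list. Other names were chosen after their values were seen. A gene that the rule named is not reported here.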

Additional observations from a re-analysis of the deposited data

Results flagged for a closer look

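Interactions under 10 kb entered no comparison. The 4 H3K27ac tables held 86259 PETs in such interactions with an end in a held bin. These were 57.0% of the PETs under 10 kb in BL6 library 1, 40.3% in BL6 library 2, 53.2% in NOD library 1 and 44.6% in NOD library 2.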

How the results depend on the processing

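With at least 3 PETs per interaction the number of held bins fell from 51188 to 11437, and the share of them in all 4 Smc1 tables from 79.0% to 59.2%. That share was 86.3% with anchors placed in every bin they overlap, 93.6% in 10 kb bins, 74.8% to 78.2% without 1 H3K27ac library and 81.3% to 83.7% without 1 Smc1 library. Using all distances, it stayed within its counting interval. Held bins called in Smc1 numbered 0 with edgeR on library totals, all distances or at least 3 PETs, 8 without the filter on low counts (93 of all 396668 bins), 0 to 63 without 1 library (14 to 441 of all bins), and 67 with DESeq2 (459 of all bins). Held pairs called numbered 0 to 1 without 1 library (0 to 90 of all pairs) and 12 with DESeq2 (134 of all pairs), and the fit of all pairs without a filter was not run. With the replicate number as a block, edgeR called 0 bins, held or not, and 1 of 129 held pairs (0.775%), against 96 of all 691 pairs (13.9%), where the fit without the block called 0. The deviations of same-numbered libraries correlated at 0.0627 over bins and 0.114 over pairs, in 2 number pairs, and no label ties the numbers across strains, so they were not taken to pair the libraries. Held bins listed in library 1 of both strains and in neither library 2 numbered 672, and 236 had the opposite pattern. The 24 recurring pairs became 244 in 25 kb bins, an alternative added after seeing the data. The NOD minus BL6 difference in the share of Smc1 PETs ran from -0.0403 to 2.45 percentage points without 1 Smc1 library (1 end) and from -0.102 to 1.13 (both ends). The cause of these changes was not tested. The listing minimum of 2 PETs limits all sparse bins and pairs.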
